A study of Danio rerio with 6 samples.

Results

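Metallothioneins and antioxidant enzymes form the cell's defence against metal ions and reactive oxygen. The genes described here are 10 zebrafish genes taken by name: mt2, hmox1a, nqo1, gclm, prdx1, gstp1, sod1, sod2, cat and gpx1a. They are 10 of 19364 genes that had a value in at least 1 library, and all 10 were among the 15475 genes tested. They were matched by the deposited gene symbols, by a rule with no threshold on a measured value, and were chosen with earlier results of these data known. RNA was sequenced from whole zebrafish at 3 days post fertilisation, in 3 wild-type libraries (titled TU) and 3 libraries of csf1ra-/- mutants made by CRISPR/Cas9. The product of csf1ra is a receptor tyrosine kinase on which macrophages and yellow pigment cells (xanthophores) depend. The labels give 30 embryos, per genotype or per sample, and do not say whether the libraries came from separate clutches or whether 1 mutant allele was used, so the spread that p-values rest on may be technical. Whole animals were used, so fewer cells of a type and less RNA per cell cannot be told apart.

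Superoxide made by respiration or by phagocytes is turned into hydrogen peroxide by superoxide dismutases. Catalase, glutathione peroxidases and peroxiredoxins then remove the peroxide, and glutathione is made from cysteine by an enzyme whose regulatory subunit is Gclm. Many of these genes are switched on by the transcription factor Nrf2, which is held back by Keap1 until electrophiles or oxidants modify Keap1. In zebrafish larvae, gstp1 is a widely used readout of Nrf2. Metallothioneins are small cysteine-rich proteins that bind zinc, copper and cadmium, and their genes are induced by metals through the factor Mtf1 and by glucocorticoids.

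All 6 libraries listed 17291 to 17653 genes, in FPKM (fragments scaled to transcript length and to the size of the library). Read totals are not part of the files, and the depth is therefore unknown. A gene's total in a library was the larger of the summed values of its first exons and of its last exons. The targeted gene csf1ra was at 4.54, 4.07 and 3.72 FPKM in wild type. It was unlisted in mutant replicates 1 and 2 and at 0.563 FPKM in mutant replicate 3 (limma adjusted p = 0.00284, with missing listings entered as 0). On the second principal component, with 18.3% of the variance, mutant replicate 3 was at -30.5 and the other 5 libraries at -2.17 to 14.4. Values without this library are given beside the results that change with it.

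Of the 10 genes, 1 rose in the mutant, mt2, 0 fell and 9 did not pass the test (limma on log2(FPKM + 1), Benjamini-Hochberg adjusted p under 0.05 over all genes tested). Over all genes, 2.42% were called, 1.21% higher and 1.2% lower. The median log2 fold change was 0.04 for the 10 genes and 0.02 for all genes. Without mutant replicate 3 the count was also 1 higher and 0 lower, where 2.91% of all genes were called.

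mt2 encodes a metallothionein and lies on chromosome 18 of GRCz10, plus strand, from 17545561 to 17546913, with a first and a last exon listed. It was at 18.7, 14.7 and 15.8 FPKM in wild-type replicates 1, 2 and 3, and at 38.0, 44.4 and 39.3 FPKM in mutant replicates 1, 2 and 3. Every mutant library was above every wild-type library, and the lowest mutant value belonged to replicate 1, not to replicate 3. The genotype means were 16.4 ± 2.07 and 40.6 ± 3.34 FPKM (SD, n = 3 each), a ratio of 2.48. The log2 fold change was 1.26 (SE 0.11, 95% interval 1.01 to 1.51, limma adjusted p = 0.00121). By p, mt2 stood at rank 43 of the 15475 genes tested, and by log2 fold change at rank 86 from the top. Its first-exon and last-exon values were the same in each library. The authors' deposited table gave its single transcript an adjusted p of 0.000466, without a direction.

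**Figure D1:**
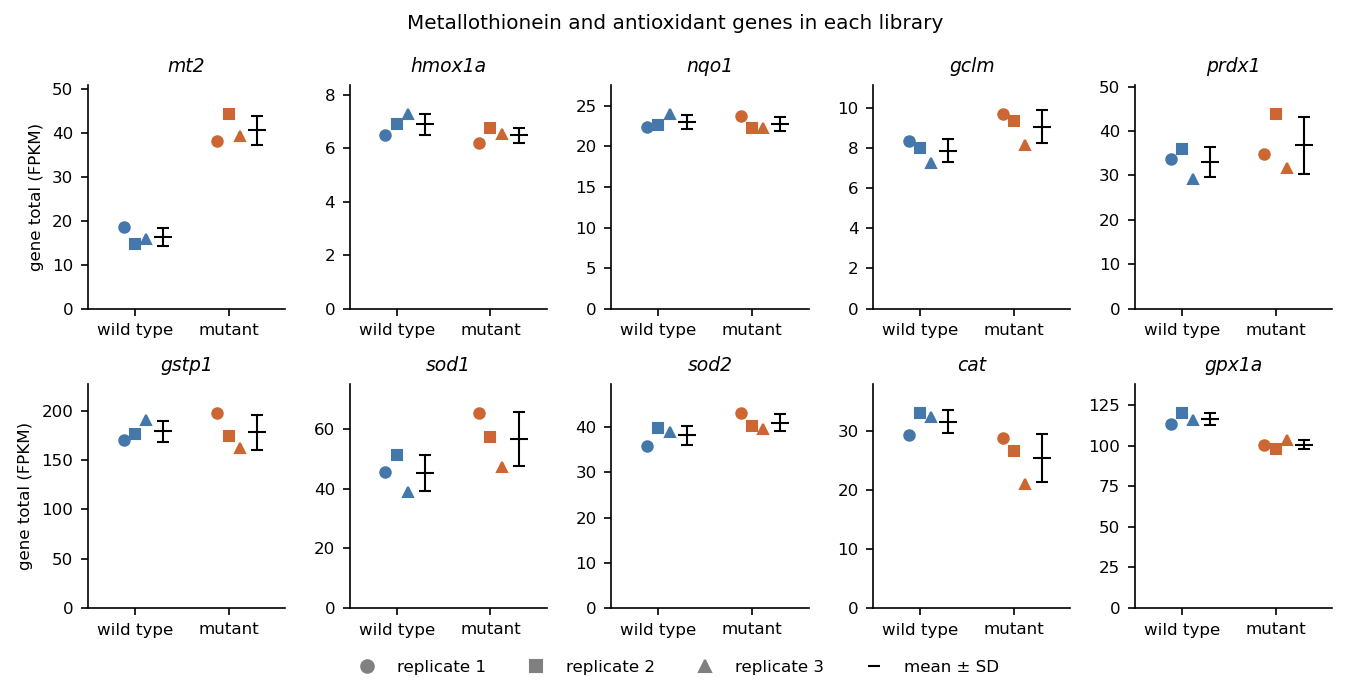
Gene totals in FPKM of the 10 genes in each of the 3 wild-type (blue) and 3 csf1ra mutant (orange) libraries, with the mean and SD beside them; every axis starts at 0. mt2 stands at 14.7 to 18.7 FPKM in wild type and 38.0 to 44.4 FPKM in the mutant, and 7 of the 10 genes overlap between the genotypes.

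The files name another metallothionein gene, mtbl (chromosome 7, plus strand, 28877564 to 28878078), which was added after the names in the files were seen. It was at 11.6, 10.9 and 17.0 FPKM in wild type and at 23.4, 22.1 and 24.7 FPKM in the mutant. The genotypes did not overlap, with the highest wild-type value in replicate 3. mtbl rose by a log2 fold change of 0.81 (SE 0.16, limma adjusted p = 0.046). The call held without wild-type replicate 3 (adjusted p = 0.00656) and was lost without each of the other 5 libraries in turn, at adjusted p of 0.0922 without mutant replicate 3 and up to 0.142 without wild-type replicate 2. It was also lost under several processing settings, such as quantile normalisation (adjusted p = 0.0552) and median-ratio rescaling (adjusted p = 0.0576). Of the 17 alternative settings, 5 kept the call. The direction was the same in all 17 alternative settings, with log2 fold changes of 0.69 to 0.99.

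The genes most like mt2 across the 6 libraries were cldn12, a claudin gene of tight junctions (r = 0.994), slc29a1a, an equilibrative nucleoside transporter gene (0.993), and si:ch211-286o17.1 (0.992), by Pearson correlation of log2(FPKM + 1) among 8899 tested genes with a mean of at least 5 FPKM. The points share 2 genotypes, and 98 genes had r over 0.95 with mt2, so these values are a description. cldn12 was at 7.32, 6.29 and 6.78 FPKM in wild type and 10.4, 10.5 and 10.04 in the mutant. slc29a1a was at 12.5, 11.4 and 11.4 FPKM and at 16.0, 16.1 and 15.5. si:ch211-286o17.1 was at 12.6, 10.1 and 11.04 FPKM and at 17.5, 18.3 and 18.004. All 3 genes were higher in every mutant library and were called, with limma adjusted p of 0.0306, 0.0475 and 0.02. They were picked for likeness to mt2, whose values separate the genotypes. Their separation and low p therefore follow from the choice and lend the mt2 result no support. Leaving out single libraries moved the adjusted p of cldn12 to between 0.0456, without mutant replicate 3, and 0.111, without mutant replicate 1. It was lost in the 5 cases other than that of mutant replicate 3. For slc29a1a it was 0.0632 to 0.159 without any 1 of the 6 libraries, so its call rested on all of them. For si:ch211-286o17.1 the call held at 0.0279 when wild-type replicate 1 was left out, and at 0.0416 for mutant replicate 3. Without any 1 of the other 4 it was 0.0689 to 0.0786.

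Summed markers of ionocytes, exocrine pancreas, macrophages and xanthophores did not overlap between the genotypes, while those of liver, photoreceptors and erythrocytes did. As single tested genes, 1 of 11 ionocyte and 7 of 10 pancreas markers were above wild type without overlap, beside 12.1% of all genes. Of the macrophage and xanthophore markers, 5 of 9 and 6 of 9 were below without overlap. Over all genes, 22.3% did not overlap in either direction. Over all genes, 2.42% were called, and 2.91% without mutant replicate 3. The summed level of 11 ionocyte markers was 242 to 263 FPKM in wild type and 283 to 297 in the mutant, with 1 of 11 tested genes called higher (ca15a). That of 13 exocrine pancreas markers was 47.1 to 100.5 and 127 to 335 FPKM, with 5 of 10 called higher. Mutant replicate 3 had the lowest pancreas sum of the mutants, at 127 FPKM, still above every wild-type library. There mt2 was at 39.3 FPKM, between the other mutant libraries, and 1 library cannot tell the patterns apart. Liver markers summed to 3628 to 4811 FPKM in wild type and 4339 to 5385 in the mutant, with 0 of 12 called and 10 of 12 log2 fold changes above 0. Photoreceptor markers summed to 628 to 865 FPKM in wild type and to 1168, 1062 and 591 FPKM in mutant replicates 1, 2 and 3, with 0 of 10 called. Erythrocyte markers summed to 1410 to 1585 FPKM in wild type and to 1279, 1232 and 1598 FPKM in the mutant, with 1 of 10 called lower (urod). For the photoreceptor and erythrocyte sums, mutant replicate 3 was the library that made the genotypes overlap. Without it, 3 liver genes (fabp10a, ttr and uox), 3 photoreceptor genes (gnat2, pde6c and arr3b) and 7 pancreas genes were called higher, and 0 erythrocyte and 2 macrophage genes lower. mt2 was called with and without this library. Macrophage markers summed to 74.2 to 81.4 FPKM in wild type and 56.8 to 59.9 in the mutant, with 3 of 9 called lower. A large part of this sum was lgmn, which overlapped at 38.2 to 39.6 FPKM in wild type and 38.5 to 40.6 in the mutant. marco, not tested, went the other way, at 0.390 to 0.639 FPKM in wild type and 0.645 to 1.75 in the mutant. Xanthophore markers summed to 154 to 172 and 27.5 to 38.3 FPKM, with 6 of 9 called lower. The edited gene csf1ra is itself in the xanthophore list and is 1 of those 6, so its call does not speak for these cells. Of the defining markers, mpeg1.1 (macrophage), hbbe1.1 (erythrocyte), prss59.1 (pancreas), atp1a1a.1 (ionocyte), opn1lw1 and opn1mw1 (photoreceptor) had no first-exon or last-exon value in any library. A missing total does not mean that a gene was unmeasured. The authors' deposited table tested mpeg1.1 and hbbe1.1, with adjusted p of 0.000466 and 0.00649 and no direction. The part of these cell types in the mt2 difference was not tested.

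Both superoxide dismutase genes overlapped between the genotypes. sod1, the cytosolic copper-zinc enzyme (chromosome 10, minus strand, 25729645 to 25737646), was at 45.6, 51.3 and 39.0 FPKM in wild type and 65.5, 57.5 and 47.4 FPKM in the mutant. Mutant replicates 1 and 2 were above all wild-type libraries and replicate 3 lay below wild-type replicate 2. The log2 fold change was 0.32 (SE 0.14, 95% interval -0.01 to 0.64, limma adjusted p = 0.33), and 0.44 without mutant replicate 3 (adjusted p = 0.143). Mutant replicate 1 alone listed an additional last exon, at 25729645 to 25729728, with 12.4 of its 65.5 FPKM. sod2, the mitochondrial manganese enzyme (chromosome 20, plus strand, 31036288 to 31044668), was at 35.9, 39.9 and 39.0 FPKM and at 43.2, 40.3 and 39.6 FPKM. Its interval was -0.08 to 0.27 around 0.10 on the log2 scale (limma adjusted p = 0.577). The secreted dismutase gene sod3a was at 1.92, 2.22 and 3.34 FPKM in wild type and 2.06, 1.09 and 1.41 in the mutant. sod3b was at 0.809, 0.603 and 0.943 FPKM and at 1.36, 1.62 and 1.13, without overlap. Neither passed (limma adjusted p = 0.339 and 0.325). ccs, which encodes the copper chaperone of Sod1, had no total.

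Among the peroxide-removing enzymes, cat and gpx1a were lower in all 3 mutant libraries than in any wild-type library, yet neither passed the test. Genotypes without overlap, in either direction, were present in 22.3% of all genes tested. cat encodes catalase (chromosome 25, plus strand, 7318706 to 7328383). It was at 29.2, 32.98 and 32.3 FPKM in wild type and 28.7, 26.5 and 20.9 FPKM in the mutant, so the closest values, wild-type replicate 1 and mutant replicate 1, were nearly equal. The log2 fold change was -0.31 (SE 0.12, 95% interval -0.59 to -0.03, limma adjusted p = 0.268), and -0.18 without mutant replicate 3, whose value was the lowest. These totals are last-exon values. The first exon was at 29.1, 22.5 and 17.6 FPKM in wild type and 28.6, 26.4 and 18.5 FPKM in the mutant, where the genotypes overlapped and the log2 fold change was 0.09 (adjusted p = 0.886).

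gpx1a encodes a cytosolic selenium-dependent glutathione peroxidase and had a last exon only (chromosome 11, minus strand, 35780286 to 35781049). It was at 113, 120.1 and 116 FPKM in wild type and 100.3, 97.9 and 103 FPKM in the mutant. The groups were each tight and separate, with a log2 fold change of -0.21 (SE 0.06, 95% interval -0.35 to -0.06, limma adjusted p = 0.162). Its paralogue gpx1b was the other way round, at 2.78, 2.81 and 2.98 FPKM in wild type and 5.18, 4.31 and 4.30 FPKM in the mutant. gpx1b had a log2 fold change of 0.53 (SE 0.12, adjusted p = 0.0721) and passed in none of 16 alternative settings. The difference between the paralogues was not tested. gpx1a was the more abundant of the paralogues in every library.

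prdx1 encodes a thiol peroxidase (chromosome 2, minus strand, 6195221 to 6203806). It was at 33.8, 35.9 and 29.2 FPKM in wild type and 34.8, 43.9 and 31.6 FPKM in the mutant, with overlap and the highest value in mutant replicate 2. The log2 fold change was 0.14 (SE 0.13, 95% interval -0.16 to 0.45, limma adjusted p = 0.649). These totals are first-exon values, since its last exon had 0.190 to 0.404 FPKM in any library. The more abundant prdx2 was at 155, 166 and 161 FPKM in wild type and 192, 184 and 179 FPKM in the mutant, without overlap (log2 fold change 0.20, adjusted p = 0.192).

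**Figure D2:**
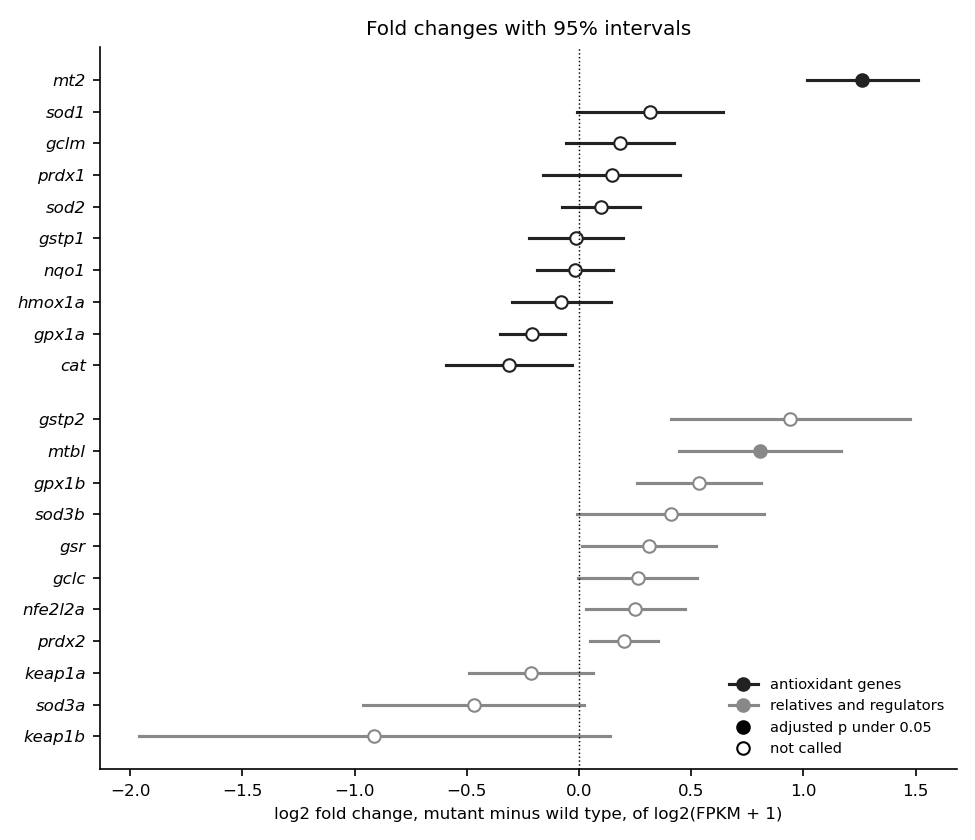
Log2 fold change of log2(FPKM + 1), mutant minus wild type, with limma's 95% interval for the 10 genes (black) and for relatives and regulators (grey); filled points have an adjusted p under 0.05. mt2 and mtbl are the filled points, and the intervals of the other 9 of the 10 genes lie between -0.59 and 0.64.

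Of the glutathione genes, gclm encodes the modifier subunit of glutamate-cysteine ligase (chromosome 8, plus strand, 15231718 to 15239547). It was at 8.35, 7.98 and 7.23 FPKM in wild type and 9.70, 9.34 and 8.13 FPKM in the mutant. Mutant replicate 3 lay between wild-type replicates 1 and 2, and the log2 fold change was 0.18 (SE 0.10, 95% interval -0.06 to 0.42, limma adjusted p = 0.446). The catalytic subunit gene gclc was at 10.8, 12.4 and 11.4 FPKM and at 15.3, 15.0 and 11.9 FPKM. In gclc too, mutant replicate 3 was the library that overlapped wild type (log2 fold change 0.26, adjusted p = 0.326). gsr, which encodes the reductase that recycles glutathione, was at 16.3, 13.8 and 11.996 FPKM in wild type and 19.1, 18.1 and 15.5 FPKM in the mutant. Wild-type replicate 1 lay above mutant replicate 3 (log2 fold change 0.31, adjusted p = 0.297).

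gstp1, a pi-class glutathione transferase gene, was the most abundant of the 10. It was at 169.9, 176 and 191 FPKM in wild type and 198, 174 and 162 FPKM in the mutant. The genotypes overlapped fully, with a log2 fold change of -0.01 (SE 0.09, 95% interval -0.22 to 0.20, limma adjusted p = 0.965). Its sign changed under quantile normalisation and without wild-type replicate 3, mutant replicate 2 or mutant replicate 3. gstp1 lies on the chromosome of csf1ra (chromosome 14, plus strand, 3400020 to 3406749), 198 kb from csf1ra. The paralogue gstp2 lies between them (3388236 to 3396402), 186 kb from csf1ra. gstp2 was at 22.5, 21.0 and 27.4 FPKM in wild type and 53.5, 58.2 and 31.3 FPKM in the mutant, so mutant replicate 3 stood just above wild type and far below the other mutants. Its log2 fold change was 0.94 (SE 0.23, adjusted p = 0.0966), and 1.21 without mutant replicate 3 (adjusted p = 0.00672). How reads common to both paralogues were assigned is not given in the sources used here, so the split between them is uncertain. The part of the position next to the edited gene was not tested.

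hmox1a encodes the inducible heme oxygenase, which breaks down heme (chromosome 3, minus strand, 25880611 to 25886721). It was the least abundant of the 10, at 6.49, 6.91 and 7.29 FPKM in wild type and 6.17, 6.74 and 6.52 FPKM in the mutant. The values overlapped, and the log2 fold change was -0.08 (SE 0.10, 95% interval -0.30 to 0.14, limma adjusted p = 0.743). nqo1 encodes a quinone reductase (chromosome 7, plus strand, 56401843 to 56420909). It was at 22.3, 22.7 and 24.02 FPKM in wild type and 23.7, 22.2 and 22.3 FPKM in the mutant, with a log2 fold change of -0.02 (SE 0.07, 95% interval -0.19 to 0.15, adjusted p = 0.939). Without wild-type replicate 3 the nqo1 value was 0.014. An interval of this width leaves room for a small change in either direction.

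**Figure D3:**
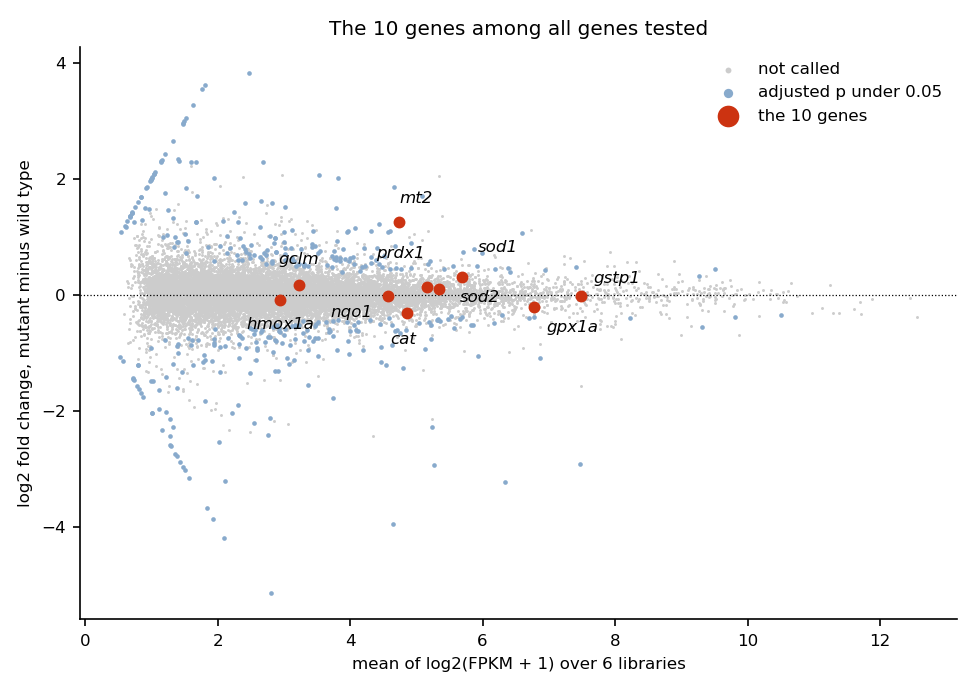
Log2 fold change, mutant minus wild type, against the mean of log2(FPKM + 1) over 6 libraries for the 15475 genes tested, with called genes in blue and the 10 genes in red. mt2, at 1.26, is the only red point apart from the band of genes that were not called; the other 9 lie between -0.31 and 0.32.

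The levels of the 10 genes spanned a 26.0-fold range of wild-type means. In wild type the order was gstp1 (179 FPKM), gpx1a (116), sod1 (45.3), sod2 (38.3), prdx1 (32.96), cat (31.5), nqo1 (23.0), mt2 (16.4), gclm (7.85) and hmox1a (6.90). Neighbours whose libraries overlapped were sod1 with sod2, prdx1 with cat, and gclm with hmox1a. In the mutant mt2 moved from place 8 to place 5, at 40.6 FPKM, and its libraries there overlapped those of sod2 (41.0) and prdx1 (36.8). Those of cat (25.4) and nqo1 (22.7) overlapped there too. The other 9 genes kept the same order among themselves.

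The total of nqo1 was alike in both genotypes, while the mix of its forms differed, an observation made after its values were seen. An internal exon is listed with alternative starts 42 bases apart, at 56415959 and at 56416001, both ending at 56416114. The longer form was at 4.11, 7.26 and 7.26 FPKM in wild type and 2.68, 2.63 and 2.31 FPKM in the mutant. The shorter form was at 16.0, 13.2 and 16.7 FPKM and at 20.8, 19.4 and 17.3 FPKM. Neither form overlapped between the genotypes. The longer form made up 20.5%, 35.5% and 30.3% of both in wild type and 11.4%, 11.9% and 11.8% in the mutant. The means were 28.7 ± 7.62% and 11.7 ± 0.267% (SD, n = 3 each), with p = 0.1 in an exact two-sided permutation test, which cannot go lower with 3 against 3 libraries. Groups of 3 without overlap always give this p, so the test adds nothing to the separation already seen. The difference was 13.7 to 21.2 percentage points when single libraries were left out. Shares without overlap were seen in 11.3% of the 337 genes with 2 such forms listed in all libraries and at least 1 FPKM in sum. Of these 38 genes, 18 differed by at least as much as nqo1, a count that includes nqo1 itself. Retention of the intron before this exon was listed at 2.23 and 2.16 FPKM in wild-type replicates 1 and 2 and at 2.41 in mutant replicate 3, and not in the other 3 libraries.

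**Figure D4:**
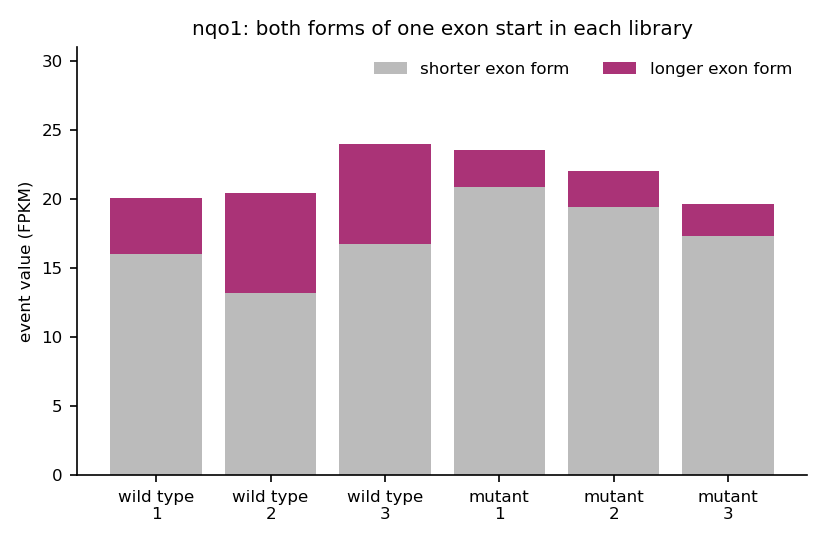
Values in FPKM of the shorter (grey) and longer (purple) form of an internal nqo1 exon in each library, stacked from 0. The purple part is 4.11 to 7.26 FPKM in wild type and 2.31 to 2.68 FPKM in the mutant, under sums that overlap.

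In the authors' deposited table, 6 of the 10 genes had at least 1 tested transcript with an adjusted p under 0.05: mt2, sod1, cat, gclm, prdx1 and nqo1. The same held for 30.1% of the 18800 genes tested there. For prdx1 it was 1 of 3 tested transcripts and for nqo1 1 of 4. That table names no genotype for its columns, so it gives no direction here. Of these 6 genes, mt2 is the one that also passed on gene totals, and at an unadjusted p under 0.05 the gene totals gave 3 of 10 (mt2, gpx1a and cat), against 15.9% of all genes.

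Around these genes, 142 further tested genes of 10 lists were examined: Nrf2 regulators, metal homeostasis, iron storage and heme breakdown, dismutases and peroxidases, the thioredoxin system, glutathione synthesis, glutathione transferases, quinone reduction and NADPH supply, NADPH oxidases, and the stress and glucocorticoid response. Of the 142, 0 rose and 2 fell, or 1.41%, with a median log2 fold change of 0.07. The metallothionein gene mtbl, which was called higher, is in none of the lists and not among the 142. The share called over all genes was 2.42%. Without mutant replicate 3 a different set passed: 5 were called higher (chac2, gstp2, gstz1, cbr1l and ddit3) and 0 lower, or 3.52%, beside 2.91% of all genes. The 2 genes that fell kept their direction there but were not called, and the median was again 0.07.

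The first of the 2 was glrx, a glutaredoxin gene whose product reduces protein-glutathione disulfides. It was at 63.5, 65.9 and 74.5 FPKM in wild type and 52.5, 47.3 and 42.7 FPKM in the mutant. glrx fell by 0.51 on the log2 scale (SE 0.10, limma adjusted p = 0.0452), with no overlap, as 1 of 20 tested genes of the peroxiredoxin, thioredoxin and glutaredoxin list (median 0.02). Without any 1 library the adjusted p was 0.0624 (mutant replicate 1) to 0.131 (wild-type replicate 2). The second was cbr1, a carbonyl reductase gene, at 3.74, 3.98 and 3.63 FPKM in wild type and 2.26, 2.15 and 2.10 FPKM in the mutant. cbr1 fell by 0.59 on the log2 scale (SE 0.12, adjusted p = 0.0476), as 1 of 18 tested genes of the quinone reduction and NADPH list (median 0.04). Its adjusted p was 0.0738 without mutant replicate 3 and up to 0.166 without wild-type replicate 2, and the call was lost without any 1 of the 6 libraries.

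Of 18 tested glutathione transferase genes, 0 were called at an adjusted p under 0.05 by limma, and 11 had an unadjusted p under 0.05. That unadjusted threshold was met by 15.9% of all genes. In the authors' deposited table, which gives no direction, 11 of 20 tested transferase genes had an adjusted p under 0.05. The share over all genes there was 30.1%. In 9 of 18, or 50.0%, every mutant library was above every wild-type library, and in 0 every mutant library was below. Over all genes, every mutant library was above every wild-type library in 12.1%. The median log2 fold change was 0.27, against 0.02 for all genes, and 15 of 18 were above 0. gstz1, a zeta-class gene whose product also acts in tyrosine breakdown, was at 5.88, 6.12 and 8.22 FPKM in wild type and 13.4, 11.7 and 9.96 FPKM in the mutant (log2 fold change 0.72, limma adjusted p = 0.0573). gstr was at 29.0, 26.8 and 30.5 FPKM and at 39.2, 38.0 and 33.02 FPKM (0.34, adjusted p = 0.121). gsto2, of the omega class, was at 11.6, 10.6 and 14.4 FPKM and at 20.0, 17.7 and 14.9 FPKM (0.49, adjusted p = 0.142). In these 3 genes mutant replicate 3 was the mutant nearest wild type, and it was the lowest mutant in 13 of the 18. It exceeded every wild-type library in 10 genes, mutant replicate 1 in 16 and mutant replicate 2 in 14. For these counts by replicate no share over all genes was taken, so they are not shown to be particular to the transferases. Without mutant replicate 3, 2 genes were called higher, gstp2 and gstz1 (adjusted p = 0.00672 and 0.0489), and the median was 0.31. Values of liver and pancreas markers stand beside these. fabp10a, a liver fatty acid binding protein gene, was at 20.4, 21.9 and 29.2 FPKM in wild type and 66.8, 63.02 and 33.3 FPKM in the mutant. uox, the urate oxidase gene, was at 13.2, 11.7 and 13.1 FPKM and at 20.8, 25.2 and 14.02 FPKM. prss59.2, a trypsin-family gene, was at 13.3, 14.4 and 34.2 FPKM and at 124.5, 101.8 and 42.4 FPKM. In each, mutant replicate 3 was the mutant nearest wild type, but these 3 genes were picked after their values were seen. Other liver markers did not all follow: apoa1a, apoa2 and tfa were lowest of the mutants in replicate 2, and fgb in replicate 3. The sum of all 14 liver markers was lowest of the mutants in replicate 2, at 4339 FPKM, beside 5385 and 4463 FPKM in mutant replicates 1 and 3. That of 13 pancreas markers was lowest of the mutants in replicate 3, at 127 FPKM. The part of these cell types in the transferase values was not tested. Several transferase genes are tandem copies, whose reads could be split between them.

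**Figure D5:**
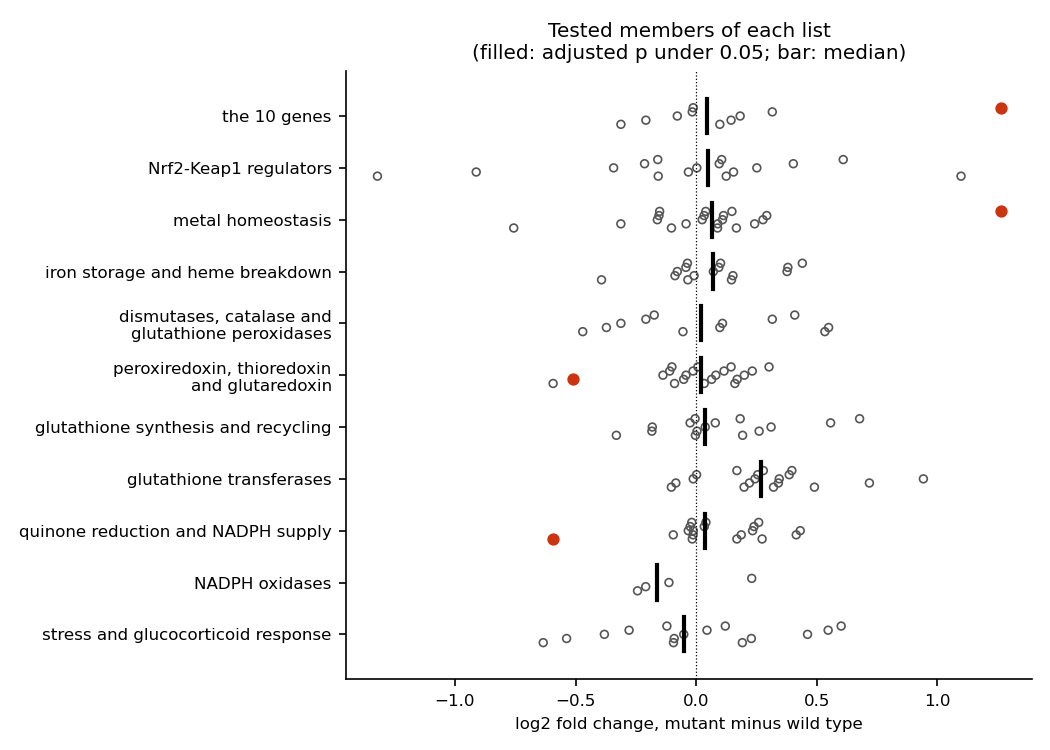
Log2 fold change, mutant minus wild type, of each tested gene in the 10 genes and in the 10 lists; filled points have an adjusted p under 0.05 and the black bar is the list's median. The filled points are mt2, which also stands in the metal list, glrx and cbr1; the bar of the glutathione transferases is at 0.27 and the others lie between -0.16 and 0.07.

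The regulators of the pathway did not pass on gene totals. In the authors' deposited table, which gives no direction, 8 of 17 tested regulators had an adjusted p under 0.05. The share over all genes there was 30.1%. Of 16 Nrf2 and Keap1 regulators tested on gene totals, 0 were called by limma (median 0.05). Without overlap, 4 were above and 2 below wild type, and 22.3% of all genes did not overlap in either direction. The smallest p belonged to nfe2l1a and nfe2l2b. nfe2l1a, a relative of the Nrf2 genes, was listed in 1 wild-type library, replicate 3 at 0.939 FPKM, and in the mutant at 2.44, 1.68 and 1.06 FPKM (limma adjusted p = 0.154). nfe2l2b, the second zebrafish Nrf2 gene, was at 2.02, 0.84 and 1.48 FPKM and at 3.15, 2.59 and 2.29 FPKM (log2 fold change 0.61, adjusted p = 0.214). In both, mutant replicate 3 was the mutant nearest wild type. nfe2l2a, the gene of the zebrafish Nrf2 that drives antioxidant induction, was at 21.9, 18.8 and 17.6 FPKM in wild type and 22.9, 22.6 and 24.3 FPKM in the mutant (log2 fold change 0.25, limma adjusted p = 0.253). keap1a, whose product holds Nrf2 back, was at 4.14, 4.56 and 3.96 FPKM and at 3.13, 3.83 and 3.56 FPKM (-0.21, adjusted p = 0.438). Its paralogue keap1b was at 4.37, 6.14 and 6.27 FPKM in wild type and 1.48, 6.55 and 1.24 FPKM in the mutant, so mutant replicate 2 stood apart from the other mutants (adjusted p = 0.382).

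In the metal list, which does not hold mtbl, 1 of 20 tested genes was called, mt2 itself (median 0.06). After mt2 the smallest p of this list belonged to atox1, slc30a10 and slc39a13. Their log2 fold changes were 0.28, -0.76 and -0.31 (limma adjusted p = 0.23, 0.241 and 0.241). The value of slc30a10 rests on low levels, 1.61, 1.65 and 1.54 FPKM in wild type and 0.968 and 0.853 FPKM in mutant replicates 1 and 3. In mutant replicate 2 slc30a10 was unlisted and entered as 0. slc30a1a, a zinc exporter gene that is, like mt2, a known target of Mtf1, was picked after its name or values were seen. It was at 13.3 FPKM in all 3 wild-type libraries and at 13.7, 11.9997 and 11.5 FPKM in the mutant (log2 fold change -0.10, limma adjusted p = 0.639). mtf1 had no total, and hmox1b no entry under that name. The other lists had 0 called genes by limma: iron and heme (15 tested, median 0.07), dismutases, catalase and glutathione peroxidases (12, median 0.02), glutathione synthesis and recycling (15, median 0.04), NADPH oxidases (4, median -0.16) and stress and glucocorticoid response (15, median -0.05). Of each of these lists the genes of smallest p are given. In the iron list these were fth1b, a ferritin gene, at 11.6, 13.0 and 14.8 FPKM in wild type and 10.5, 10.5 and 8.35 in the mutant (adjusted p = 0.183), and blvra. blvra, a biliverdin reductase gene, was at 3.13, 3.43 and 2.24 FPKM and at 3.69, 4.70 and 4.54 FPKM (adjusted p = 0.236). The genotypes did not overlap in either gene, in opposite directions. gpx4a, a lipid peroxide-reducing enzyme gene, was at 117, 102 and 123 FPKM and at 94.8, 78.9 and 89.6 FPKM (adjusted p = 0.117). chac2, which encodes a glutathione-degrading enzyme, was at 1.96, 1.83 and 2.11 FPKM and at 4.12, 4.23 and 2.98 FPKM (adjusted p = 0.07). ddit3, a gene of the unfolded protein response, was at 15.8, 14.6 and 14.7 FPKM and at 21.5, 25.2 and 17.3 FPKM (adjusted p = 0.138). cdkn1a, a cell-cycle inhibitor gene induced by p53, was at 8.53, 8.32 and 7.69 FPKM and at 7.24, 5.502 and 5.54 FPKM (adjusted p = 0.186). Of the 22 matched genes of the stress and glucocorticoid list, 7 were not tested on gene totals, and per1a and tsc22d3 had no total. In the authors' deposited table, 10 of 20 tested genes of this list had an adjusted p under 0.05. The share over all genes there was 30.1%, and the table gives no direction. Its adjusted p was 0.000466 for tsc22d3, fkbp5 and klf9 and 0.000892 for per1a. On gene totals, fkbp5 and klf9 were far higher in mutant replicate 3 than in every other library. Neither was called (limma adjusted p = 0.533 and 0.538). Of the NADPH oxidase genes, ncf1, a phagocyte oxidase subunit gene, was at 1.27, 1.28 and 1.71 FPKM and at 2.03, 2.05 and 1.44 FPKM (adjusted p = 0.557). noxo1a, an oxidase organiser gene, was at 1.53, 2.22 and 1.94 FPKM and at 1.59, 1.62 and 1.29 FPKM (adjusted p = 0.577). Both oxidase genes overlapped between the genotypes. Without mutant replicate 3, chac2, ddit3 and cbr1l, a carbonyl reductase-like gene, were each called higher, while glrx and cbr1 were not called.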

How the data were processed

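RNA-seq libraries of 3 wild-type and 3 csf1ra mutant zebrafish samples were analysed. The authors deposited FPKM values per transcript-structure event for each library, per the file headers, and a table with their own p-value and adjusted p-value per transcript. The submitters' processing notes name, without roles, the build GRCz10 and the tools Cufflinks 2.2.1, DESeq, HISAT2 2.0.1, HTSeq 0.6.1, SAMtools 0.1.18 and Trimmomatic 0.30. Strandedness was not given in the sources used here, nor were counting settings.

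A gene's total was the larger of its summed first-exon and last-exon FPKM, and unlisted genes entered as 0. limma 3.58.1 (R 4.3.3, trend and robust options, genotype as the only term, two-sided) was run on log2(FPKM + 1), a scale that understates the change of low genes, over the 15475 genes that reached 1 FPKM in 3 or more libraries. The threshold was an adjusted p of 0.05. The procedure was tested on simulated data. Positions are exon events on GRCz10. Events, correlations and figures were handled with Python 3.11.15, pandas 2.3.3, SciPy 1.17.1 and matplotlib 3.10.9.

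The 10 genes and the lists were chosen with earlier results of these data known. Genes were named as the 10 members, csf1ra, listed close relatives, called list members or otherwise the 2 of smallest p, and the 3 genes most like mt2. Added after their names or values were seen were mtbl, slc30a1a, atox1, slc30a10, slc39a13, gstr, gsto2, cbr1l, gpx4b and mgst3a. So were fabp10a, uox, prss59.2, apoa1a, apoa2, tfa, fgb, fkbp5 and klf9. Lists were matched by deposited names, then by current symbols.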

Additional observations from a re-analysis of the deposited data

How the results depend on the processing

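Across 17 alternative settings the 10 genes gave 1 called higher (mt2) and 0 called lower each time. The log2 fold change of mt2 was 1.19 to 1.36 (limma adjusted p 0.00123 to 0.0202). Of 168 values of single genes, 162 kept their direction and side of the threshold and 6 changed sign, all of them with adjusted p over 0.05. These were gstp1 under quantile normalisation (0.02) and without wild-type replicate 3 (0.035), mutant replicate 2 (0.00069) or mutant replicate 3 (0.053), nqo1 without wild-type replicate 3 (0.014), and cat with first-exon events alone (0.086), where a lower first-exon value in wild type replaces the last-exon value. gpx1a had no first-exon value, and prdx1 did not pass the filter on last-exon events. The number of genes called over the whole table was 374, with 232 among genes listed in all 6 libraries, and 133 to 450 when single libraries were left out. With the replicate number as a block it was 115, and mt2 was called (adjusted p = 0.0202), while mtbl, glrx, cbr1, cldn12, slc29a1a and si:ch211-286o17.1 were not (adjusted p 0.0697, 0.148, 0.138, 0.102, 0.132 and 0.0832). The numbers are not stated to pair the samples: deviations of same-numbered libraries correlated at -0.0274, 0.00274 and 0.00642, and no library correlated best with its own number. Left-out libraries gave -0.045 to 0.014 for nqo1 and -0.09 to 0.053 for gstp1. What depth limits is unknown, since no totals were given.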

Other observations

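Values of the antioxidant genes gpx4b and mgst3a differed within a genotype, and both genes were chosen after the values were seen. gpx4b, a paralogue of the lipid peroxide-reducing enzyme gene gpx4a, was at 34.4 FPKM in wild-type replicate 1 and at 132 and 128 FPKM in wild-type replicates 2 and 3, beside 126, 123 and 121 FPKM in the mutant. mgst3a, a microsomal glutathione transferase gene, was at 20.8, 6.81 and 21.8 FPKM in wild type and 19.8, 13.2 and 10.02 FPKM in the mutant.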
